A study of Mus musculus with 10 samples.

Results

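The distal beta protocadherins examined here were Pcdhb13 to Pcdhb22, the last 10 of the 22 genes of the mouse beta array by their number and by their order along chromosome 18. They were taken as the rows of the deposited count table that carry these symbols, 10 of 52632 genes, and the rule itself uses no measured value. All 10 entered the test, which kept 17110 genes with enough counts. The other 12 beta genes, Pcdhb1 to Pcdhb12, are called proximal here, and 11 of them were tested (Pcdhb1 was not).

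Clustered protocadherins are cell-surface cadherins whose many related genes lie side by side in alpha, beta and gamma arrays. Each beta gene is a large coding exon with its own promoter and encodes a whole adhesion protein with extracellular cadherin repeats, a membrane-spanning stretch and a short cytoplasmic tail, whereas alpha and gamma genes splice a variable exon to shared constant exons. A neuron expresses a small choice of these genes, and the proteins, joined in mixed complexes, bind identical complexes on other membranes, which lets a neuron tell its own branches from those of its neighbours. SMCHD1 is a chromatin protein with an ATPase domain, related to SMC proteins, and is known as a repressor of clustered protocadherins, of imprinted clusters and of the inactive X chromosome.

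Polyadenylated RNA was sequenced from mouse neural stem cells cultured as adherent layers, in medium with EGF and basic FGF, from the cortices of single embryos at embryonic day 14.5. The series asks what the ATPase activity of SMCHD1 does for silencing, here with an allele that carries the E147A change. Female E147A/+ cultures were Smchd1GFP-E147A/+; XistdeltaA/+ (n = 2, litters 1 and 2) and female +/+ cultures were Smchd1+/+; XistdeltaA/+ (n = 2, both litter 3). Male E147A/+ cultures were Smchd1GFP-E147A/+; XY (n = 3, litters 1, 1 and 3) and male +/+ cultures were Smchd1+/+; XY (n = 3, litters 4, 1 and 3). Every embryo was a cross of a Castaneus (Cast) father with a mother that was itself a 129/C57 F1. E147A goes with the GFP tag in all cultures and the mutation is heterozygous, so tag and mutation cannot be told apart. In females genotype and litter cannot be told apart either.

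Total counts ran from 20648916 in male +/+ replicate 2 to 44519020 in female E147A/+ replicate 2. The mutation cannot be read from gene counts, and the level of Smchd1 itself, in counts scaled to library size and TMM factor (CPM), was 118 ± 2.88 (SD, n = 2) and 156 ± 22.5 (n = 2) in females with and without the allele, and 115 ± 17.9 (n = 3) and 155 ± 34.8 (n = 3) in males. All 12 neural stem markers tested, Sox2, Nes and Vim among them, were detected, with a summed level of 5330 to 7490 CPM over the libraries. Markers of microglia summed to at most 2.83 CPM, of endothelium to at most 3.75 and of mesenchyme to at most 29.8. Neuron markers summed to 567 to 770 CPM in E147A/+ and 618 to 1030 in +/+. Of these Map2 alone was at 477 to 982 CPM over the libraries, and every other neuron marker lay between 0.169 and 33.4. Oligodendrocyte-lineage markers summed to 85.4 to 130 CPM in female E147A/+ against 177 to 235 in female +/+, and to 132 to 186 in male E147A/+ against 102 to 448 in male +/+. Astrocyte markers summed to 103 to 118 CPM in female E147A/+ against 40.2 to 77.8 in female +/+, and to 36.1 to 62.5 against 37.9 to 78.6 in males. None of these marker genes was called in edgeR (quasi-likelihood F test, p adjusted over all genes and under 0.05), 4 of the 39 tested had an unadjusted p under 0.05 (1 neuron, 2 oligodendrocyte-lineage and 1 endothelium marker), against 5.9% of all genes in either direction, and DESeq2 called 1 of 39, against 113 of all 17110 genes, Pdgfra of the oligodendrocyte lineage. The part of these other cells in the values below was not tested, and in bulk RNA a change in the number of expressing cells and in RNA per cell cannot be told apart.

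In these stem cells all 10 distal genes were detected in every library and all 10 had a higher mean in E147A/+ than in +/+, in females and in males. Their summed level was 110.2 and 80.63 CPM in E147A/+ females against 51.78 and 35.19 in female +/+. In males it was 117.8, 96.54 and 93.01 in E147A/+ and 41.73, 30.42 and 62.98 in +/+. The lowest E147A/+ library, at 80.63, therefore lay above the highest +/+ library, at 62.98. Group means were 95.4 ± 20.9 (SD, n = 2) against 43.5 ± 11.7 (n = 2) in females and 102 ± 13.4 (n = 3) against 45.0 ± 16.5 (n = 3) in males. None of the 10 was called in edgeR over both sexes at an adjusted p under 0.05, a threshold that 0.0468% of all tested genes passed in the upward direction. All 10 had an unadjusted p under 0.05 and a positive log2 fold change, against 3.05% of all tested genes. DESeq2 called 4 of the 10 (Pcdhb14, Pcdhb16, Pcdhb18 and Pcdhb22), against 0.345% of all genes in the upward direction. In limma-voom 0 of 10 passed, against 0.0468% of all genes, so the call of these 4 depends on the tool.

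**Figure D1:**
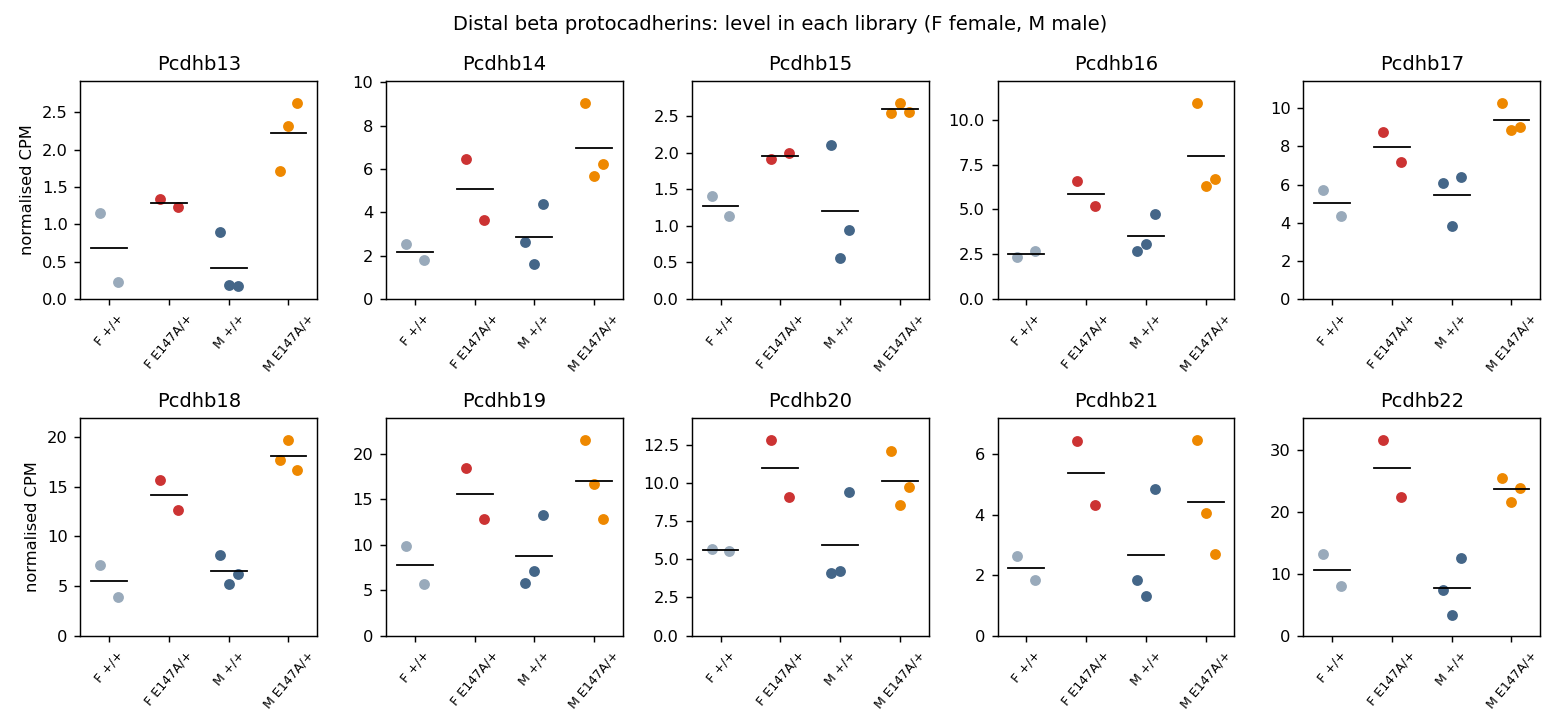
Normalised CPM (vertical axis, linear and starting at 0, its scale differing between panels) of each distal beta protocadherin in the 10 libraries, by sex and genotype, with points for libraries and bars for group means. Pcdhb18 and Pcdhb22 show E147A/+ libraries wholly above +/+ libraries, while for Pcdhb19, Pcdhb20 and Pcdhb21 male +/+ replicate 3 reaches into the E147A/+ range.

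The genes lie in 1 orientation (plus strand) between 37442500 and 37524479 on chromosome 18 of GRCm38, and GENCODE M21 gives each a single exon interval, apart from Pcdhb22, which has 3. Pcdhb13 (ENSMUSG00000047307) spans 37442500 to 37446209, Pcdhb18 (ENSMUSG00000048347) 37489465 to 37494505 and Pcdhb22 (ENSMUSG00000073591) 37517871 to 37524479. Sequence shared between paralogs limits counting little for most of them. Of all 80-base stretches, the read length, 0% (Pcdhb13, Pcdhb18) to 1.26% (Pcdhb20) also occur in a transcript of another gene for Pcdhb13 to Pcdhb20. The shares were 8.54% for Pcdhb21 (37513621 to 37518325) and 5.87% for Pcdhb22, whose exons overlap by 455 bases on the same strand, so the split of counts between this pair is uncertain.

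Levels between genes were compared as CPM per kilobase of the longest annotated transcript, a scale that depends on annotated transcript ends. In the 5 +/+ libraries Pcdhb20 was highest at 1.63 ± 0.604 (SD, n = 5), followed by Pcdhb22 at 1.35 ± 0.617, Pcdhb18 at 1.21 ± 0.332, Pcdhb19 at 1.17 ± 0.452 and Pcdhb17 at 1.134 ± 0.240. A lower group held Pcdhb16 at 0.596 ± 0.183, Pcdhb21 at 0.531 ± 0.298, Pcdhb15 at 0.439 ± 0.206, Pcdhb14 at 0.298 ± 0.127 and Pcdhb13 at 0.142 ± 0.124. Every pair of neighbours in this order overlapped in range over the libraries, the step from Pcdhb17 (0.826 to 1.38) to Pcdhb16 (0.451 to 0.911) included. Genes farther apart in the order could be separate, as Pcdhb17 was from Pcdhb15 (0.201 to 0.751). In the 5 E147A/+ libraries the order began with Pcdhb22 at 3.79 ± 0.606 (n = 5), Pcdhb18 at 3.27 ± 0.518 and Pcdhb20 at 2.94 ± 0.530, and the other 7 kept their places down to Pcdhb13 at 0.497 ± 0.164.

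Pcdhb18 had the lowest p of the members. It stood at 15.7 and 12.7 CPM in female E147A/+ against 7.16 and 3.85 in female +/+, and at 17.7, 19.8 and 16.7 in male E147A/+ against 8.14, 5.16 and 6.18 in male +/+. No E147A/+ library reached down to the highest +/+ library. Over both sexes its log2 fold change was 1.42 (SE 0.23, 95% interval 0.90 to 1.93, a 2.67-fold difference). Its edgeR p was 0.000117 unadjusted and 0.0869 adjusted, rank 23 of 17110 genes. It was 1.37 (SE 0.36) in females and 1.47 (SE 0.29) in males. In DESeq2 its adjusted p was 8.79e-07, and over all the alternatives it ranged up to 0.852.

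Pcdhb22, the last gene of the array, held the highest share of the distal counts in all libraries other than the 3 of male +/+. It stood at 31.7 and 22.5 CPM in female E147A/+ against 13.2 and 8.04 in female +/+, and at 25.5, 21.7 and 24.0 in male E147A/+ against 7.45, 3.29 and 12.6 in male +/+. Again the genotypes did not overlap in either sex. The log2 fold change was 1.48 (SE 0.33, 95% interval 0.74 to 2.22, 2.78-fold; edgeR adjusted p 0.34). Its neighbour Pcdhb21, which shares exon bases with it, stood at 6.44 and 4.32 CPM in female E147A/+ against 2.64 and 1.85 in female +/+, and at 6.48, 4.05 and 2.69 against 1.83, 1.31 and 4.86 in males. In males 1 +/+ library, replicate 3, lay above 2 of the 3 E147A/+ libraries. The log2 fold change of Pcdhb21 was 0.99 (SE 0.42, 95% interval 0.05 to 1.93; edgeR adjusted p 0.821).

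Pcdhb16 and Pcdhb17, in the middle of the stretch, also separated the genotypes over all 10 libraries. Pcdhb16 stood at 6.58 and 5.18 CPM in female E147A/+ against 2.36 and 2.70 in female +/+, and at 11.0, 6.33 and 6.72 in male E147A/+ against 2.66, 3.10 and 4.76 in male +/+. Pcdhb17 stood at 8.75 and 7.19 CPM against 5.70 and 4.37 in females, and at 10.3, 8.87 and 9.01 against 6.10, 3.85 and 6.41 in males. Pcdhb17 nevertheless had the smallest estimate of the 10, with a log2 fold change of 0.72 (SE 0.22; edgeR adjusted p 0.701). That of Pcdhb16 was 1.20 (SE 0.28; edgeR adjusted p 0.365).

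Pcdhb13, the first gene of the stretch and the lowest per kilobase, had the largest estimate and the widest error. It stood at 1.34 and 1.23 CPM in female E147A/+ against 1.15 and 0.231 in female +/+, and at 1.71, 2.31 and 2.63 in male E147A/+ against 0.897, 0.188 and 0.169 in male +/+. These are few counts, 53 to 79 in the E147A/+ libraries and 4 to 36 in the +/+ libraries, and 2 of the 5 +/+ libraries were close to the E147A/+ range while 3 were far below it. The log2 fold change was 1.64 (SE 0.58, 95% interval 0.34 to 2.94; edgeR adjusted p 0.752), and it was 2.42 without female +/+ replicate 1 and 1.27 without female +/+ replicate 2.

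Pcdhb14 and Pcdhb15 separated the genotypes within each sex but not across the sexes. Pcdhb14 stood at 6.47 and 3.65 CPM in female E147A/+ against 2.55 and 1.80 in female +/+, and at 9.06, 5.66 and 6.22 in male E147A/+ against 2.62, 1.60 and 4.39 in male +/+. Pcdhb15 stood at 1.92 and 1.99 CPM against 1.40 and 1.130 in females, and at 2.55, 2.68 and 2.56 against 2.10, 0.563 and 0.945 in males. The male E147A/+ values of Pcdhb15 lay close together, while the male +/+ values were spread widely, with replicate 1 near the E147A/+ range. Log2 fold changes were 1.25 (SE 0.34; edgeR adjusted p 0.608) for Pcdhb14 and 0.86 (SE 0.37; edgeR adjusted p 0.821) for Pcdhb15.

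Pcdhb19 and Pcdhb20 overlapped between genotypes in males. Pcdhb19 stood at 18.5 and 12.8 CPM in female E147A/+ against 9.90 and 5.65 in female +/+, and at 21.6, 16.6 and 12.8 in male E147A/+ against 5.83, 7.14 and 13.3 in male +/+. Pcdhb20 stood at 12.8 and 9.08 CPM against 5.70 and 5.57 in females, and at 12.1, 8.57 and 9.71 against 4.10, 4.23 and 9.42 in males. In both genes the overlap came from male +/+ replicate 3. Their log2 fold changes were 0.98 (SE 0.30; edgeR adjusted p 0.701) and 0.87 (SE 0.28; edgeR adjusted p 0.727).

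Every E147A/+ library lay above every +/+ library over both sexes for 5 of the 10 genes (Pcdhb13, Pcdhb16, Pcdhb17, Pcdhb18 and Pcdhb22), against 0.695% of all genes tested. In females it did so for 10 of 10, against 21.8% of all genes, and in males for 7 of 10, against 3.2%. The median log2 fold change of the 10 was 1.10 over both sexes (range 0.72 to 1.64), 1.11 in females and 1.14 in males, beside -0.01, -0.01 and -0.02 over all genes tested. A positive estimate was found for 10 of 10 in each contrast and for 48.0% of all genes over both sexes. The members share libraries and a locus, so these counts are not 10 independent observations.

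Taken by sex, edgeR called none of the 10. In females 4 had an unadjusted p under 0.05 (Pcdhb14, Pcdhb16, Pcdhb18 and Pcdhb22), against 2.7% of all genes in the upward direction, while 0.00584% of all genes were called as higher. In males 8 did (all but Pcdhb20 and Pcdhb21), against 1.62% of all genes, while 0.0117% were called. DESeq2 called 0 in females, against 0.134% of all genes in the upward direction, with 7 at an unadjusted p under 0.05, against 3.64%. In males it called 2, Pcdhb18 and Pcdhb22, against 0.175% of all genes, with adjusted p-values of 0.000399 and 0.0492. XistdeltaA was labelled in all female cultures and in no male culture, so in contrasts between the sexes it cannot be told apart from sex. The difference between the sexes in the genotype effect was itself tested. It ran from -1.47 (Pcdhb13, SE 1.14, 95% interval -4.03 to 1.08) to 0.54 (Pcdhb21, SE 0.83, interval -1.32 to 2.40) on the log2 scale, with an adjusted p of 0.999 for each gene in edgeR. At an unadjusted p under 0.05 there were 0 of 10 in edgeR, DESeq2 or limma-voom. Of all 17110 genes, edgeR had 159 with a positive and 155 with a negative difference at that threshold. The narrowest interval of a member for this difference, that of Pcdhb17 (-1.11 to 0.87), reaches farther from 0 on each side than its genotype estimate of 0.72. Without the mutation, female minus male +/+ was -0.47 (Pcdhb16) to 0.69 (Pcdhb13) on the log2 scale, also with adjusted p-values of 0.999 in edgeR and 0 of 10 at an unadjusted p under 0.05 by any of the 3 tools. At that unadjusted threshold edgeR had 110 of all 17110 genes higher and 172 lower in female +/+.

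Litter could be held constant in males only. In litter 1, with 2 E147A/+ cultures and 1 +/+ culture, the log2 ratios of E147A/+ over +/+ ran from 1.27 (Pcdhb20) to 2.88 (Pcdhb13). Their median was 1.88, beside 0.01 over all genes. In litter 3, with 1 culture of each, the log2 ratios ran from -0.83 (Pcdhb21), -0.05 (Pcdhb19) and 0.04 (Pcdhb20) to 1.42 (Pcdhb18) and 3.34 (Pcdhb13). Here the median was 0.49, beside -0.05 over all genes. The +/+ cultures of these litters were the lowest and the highest male +/+ cultures, replicates 2 and 3, and these ratios have no test of their own. A fit with litter as a covariate called 0 of 10 in edgeR over both sexes, against 0.00584% of all genes in the upward direction, and 0 of 10 in males, against 0%. At an unadjusted p under 0.05 it had 8 of 10 over both sexes, against 2.32% of all genes, and 7 of 10 in males, against 3.47%. Its log2 fold changes over both sexes were all positive, with a median of 1.30, the highest being those of Pcdhb13 (2.43, adjusted p 0.98) and Pcdhb22 (2.18, adjusted p 0.916) and the lowest adjusted p that of Pcdhb18 (0.852). This edgeR fit gives no weight to female E147A/+ replicate 2 and male +/+ replicate 1, the only cultures of their litters. Its female part sets E147A/+ replicate 1 of litter 1 against +/+ of litter 3, and takes the difference between these litters from the male cultures.

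Along the array the median estimate was lower for the distal than for the proximal genes, while single genes of both stretches overlapped in size. The proximal median was 1.45 over both sexes (range 0.92 to 2.51). In edgeR's test 4 of the 11 proximal genes tested rose, beside 0 of 10 distal and 0.0468% of all genes. They were Pcdhb11 (log2 fold change 2.51, SE 0.29, adjusted p 0.0164), Pcdhb3 (2.07, SE 0.26, 0.0195), Pcdhb12 (2.46, SE 0.31, 0.0208) and Pcdhb2 (2.02, SE 0.27, 0.0334). DESeq2 called 9 of 11 proximal genes, against 0.345% of all genes in the upward direction. With litter as a covariate edgeR called 1 of all 17110 genes as higher over both sexes, so at most 1 of the 4 proximal genes passed there. The counts of Pcdhb12 are uncertain, since 62.7% of its 80-base stretches also occur in another transcript and 1927 of its exon bases overlap Gm37446, a gene model on the opposite strand. The distal median was 0.355 lower on the log2 scale, a difference that was not tested, and it was -0.639 without female E147A/+ replicate 1, -0.601 without male E147A/+ replicate 1, -0.584 without male +/+ replicate 1, -0.251 without male +/+ replicate 2 and -0.16 without male +/+ replicate 3. It was -0.141 without male E147A/+ replicate 3 and -0.11 without female E147A/+ replicate 2. With litter as a covariate it was -0.79, and with 10 counts in every library -0.707. Its sign was thus the same throughout and its size was not well fixed.

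**Figure D2:**
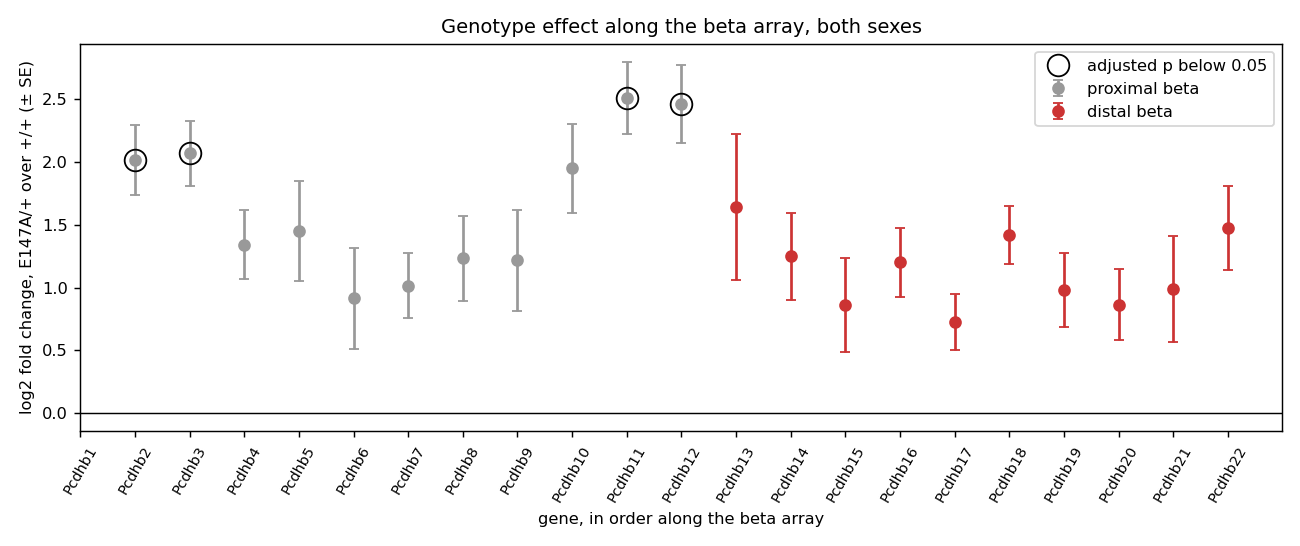
Log2 fold change of E147A/+ over +/+ over both sexes (vertical axis), with its standard error as bars, for the beta genes in array order (horizontal axis, gene order and not distance), distal genes in red and rings for an adjusted p below 0.05. All plotted estimates lie above 0, the 4 ringed genes are proximal, and Pcdhb1 has no point because it was not tested.

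The plot of estimates by array order shows 2 proximal genes at its top, Pcdhb11 and Pcdhb12, directly before the first distal gene, and no steady slope inside the distal stretch. Across the 10 distal genes the estimate and the order had a Pearson r of -0.19 and a Spearman rho of -0.10, and across all 21 tested beta genes they had -0.37 and -0.39. Against the log2 level in +/+ the values were -0.25 and 0.02 for the distal genes and -0.47 and -0.40 for the 21. These describe genes of the same libraries, and a low level also widens the error of an estimate. As genotype means, the highest distal gene in +/+, Pcdhb22, was at 8.92 CPM in +/+ and 25.1 in E147A/+, Pcdhb19 at 8.36 and 16.5, and the low Pcdhb15 at 1.23 and 2.34, so no order by level is read from these estimates.

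As a share of all beta counts the distal genes made up 66.3% and 58.6% in female E147A/+ against 73.3% and 67.0% in female +/+. In males they made up 65.1%, 59.7% and 54.3% in E147A/+ and 59.1%, 69.4% and 72.9% in +/+. The female groups were barely apart, and the male groups overlapped through male +/+ replicate 1. Group means were 62.5 ± 5.46 (SD, n = 2) against 70.2 ± 4.51 (n = 2) and 59.7 ± 5.41 (n = 3) against 67.1 ± 7.16 (n = 3), differences about as large as the spread between replicates.

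**Figure D3:**
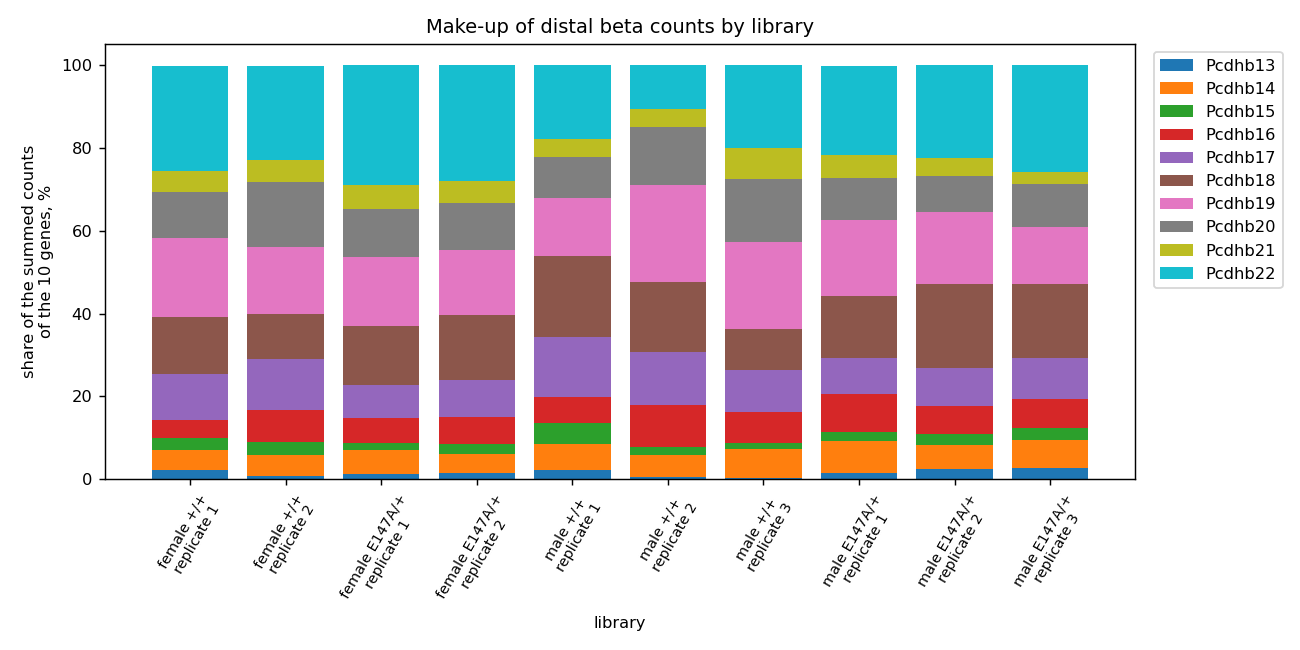
Share of the summed counts of the 10 distal genes that came from each gene (vertical axis, %), 1 bar per library. The Pcdhb22 band at the top is wider in E147A/+ than in +/+ libraries of the same sex, narrowest in male +/+ replicate 2 at 10.8%, and the Pcdhb17 band is narrower.

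The make-up of the distal counts varied between libraries, as the stacked shares show: the Pcdhb22 share ran from 10.8% to 28.8%, that of Pcdhb18 from 9.81% to 20.5% and that of Pcdhb13 from 0.268% to 2.82%. Pcdhb22 had the highest share in the 7 libraries that were not male +/+, where Pcdhb18 led in replicate 1 (19.5%) and Pcdhb19 in replicates 2 (23.5%) and 3 (21.1%). Pcdhb22 made up 28.3% ± 0.659 (SD, n = 2) in female E147A/+ against 24.2% ± 1.89 (n = 2) in female +/+, and 23.3% ± 2.20 (n = 3) in male E147A/+ against 16.2% ± 4.81 (n = 3) in male +/+. Its libraries did not overlap between genotypes within a sex, at 27.9% to 28.8% against 22.8% to 25.5% in females and at 21.6% to 25.8% against 10.8% to 20.0% in males. Pcdhb17 went the other way, with 7.94% to 8.92% in female E147A/+ against 11.0% to 12.4% in female +/+ and 8.73% to 9.69% in male E147A/+ against 10.2% to 14.6% in male +/+. Shares within a sum are tied to each other, since a larger share of 1 gene lowers the others, and they were not tested.

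Within a group many, but not all, members deviated from the group mean in the same direction. Male +/+ replicate 2 was above its group mean for 0 of 10 genes, replicate 1 for 5 and replicate 3 for 7, and the male E147A/+ replicates were above theirs for 7, 4 and 2. In females replicate 1 was above the mean for 9 of 10 genes in each genotype, which in a group of 2 puts replicate 2 below it. Over the 45 pairs of members, the deviation of log2 CPM from the group mean had a Pearson r from -0.57 (Pcdhb13 and Pcdhb16) to 0.94 (Pcdhb17 and Pcdhb22) over the 10 libraries, with a median of 0.59 and 36 of 45 positive. Pcdhb13, Pcdhb15 and Pcdhb18 were alike in this (r 0.68 to 0.87 between them), as were Pcdhb16, Pcdhb19 and Pcdhb20 (0.73 to 0.88), while 8 of the 9 pairs across these trios had values at or below 0 and Pcdhb18 with Pcdhb19 had 0.32. These trios were picked after their values were seen. Male +/+ replicate 2 was also the shallowest library, and depth enters these values.

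The 5 genes whose log2 CPM was most like the mean of the 10 members over the 10 libraries were Pcdhb11 (Pearson r 0.957), Pcdhb2 (0.936), Pcdhb12 (0.923), Trp53cor1 (0.908) and Pcdhb10 (0.905). Of these, 4 were proximal beta genes, and over all 11 proximal genes r ran from 0.63 (Pcdhb6) to 0.96. Trp53cor1, a long noncoding RNA gene on chromosome 17, was at 8.97 to 11.5 CPM in E147A/+ and 4.69 to 6.07 in +/+, with a log2 fold change of 0.91 (SE 0.19; edgeR adjusted p 0.267). With 2 genotypes in the 10 libraries, a higher level in E147A/+ by itself raises this measure.

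Other genes around the locus and of the pathway were read from lists of named genes. Of 44 tested genes within 1 Mb of the protocadherin arrays that are not clustered protocadherins, 0 passed in edgeR and 6 had an unadjusted p under 0.05, against 5.9% of all genes in either direction. DESeq2 called 2 of the 44, Gm36858 and Taf7, against 113 of all 17110 genes. The median log2 fold change of the 44 was -0.06. Taf7 had a negative edgeR estimate (-0.68, SE 0.18; edgeR adjusted p 0.547) and Gm36858 a positive one, for which no size is given because 4 of its 5 +/+ libraries had 0 counts. Of 23 tested regulators of protocadherins, among them Ctcf, the cohesin subunit Rad21 and the DNA methyltransferases, 0 passed in edgeR, DESeq2 or limma-voom, 1 (Smchd1) had an unadjusted p under 0.05 in edgeR, and estimates ran from -0.46 to 0.43. Of 14 tested partners of protocadherin signalling, such as the kinase gene Ptk2 and the WAVE complex gene Cyfip2, 0 passed by any of the 3 tools, with 0 at an unadjusted p under 0.05 in edgeR, 2 in DESeq2 and 1 in limma-voom, and a median of -0.12.

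For the 4 female libraries the table also split counts into a 129 and a Cast column. Since the mothers were 129/C57 F1, a maternal allele can be of either strain, and 129 here means the column name. Genes around the locus showed which libraries held both alleles. Over genes within 10 Mb with at least 20 allelic counts, the median Cast share was 48.2% (108 genes) in female E147A/+ replicate 2 and 47.5% (102 genes) in female +/+ replicate 1. It was 0.323% (108 genes) in female E147A/+ replicate 1 and 0.358% (103 genes) in female +/+ replicate 2. These 2 libraries thus showed nearly no Cast counts at the locus, which goes against the labelled Castaneus father of every embryo, and the reason was not tested.

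In the libraries with both alleles, the 10 distal genes together were near equal between alleles. The Cast share of their allelic counts was 48.3% in female E147A/+ replicate 2 (95% Wilson interval 46.1 to 50.5, 940 of 1946 counts) and 48.8% in female +/+ replicate 1 (45.6 to 52.1, 437 of 895), against 0.0384% (1 of 2602) and 0.137% (1 of 732) in the libraries without Cast at the locus. Intervals on allelic counts cover counting error only, and reads without molecular identifiers are not independent molecules. Allelic counts were 53.4% to 55.8% of the total counts of the 10 genes. In 1 case, Pcdhb13 in female +/+ replicate 2, there were 10 allelic counts and 9 total counts, so totals and allelic counts did not follow 1 rule throughout.

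**Figure D4:**
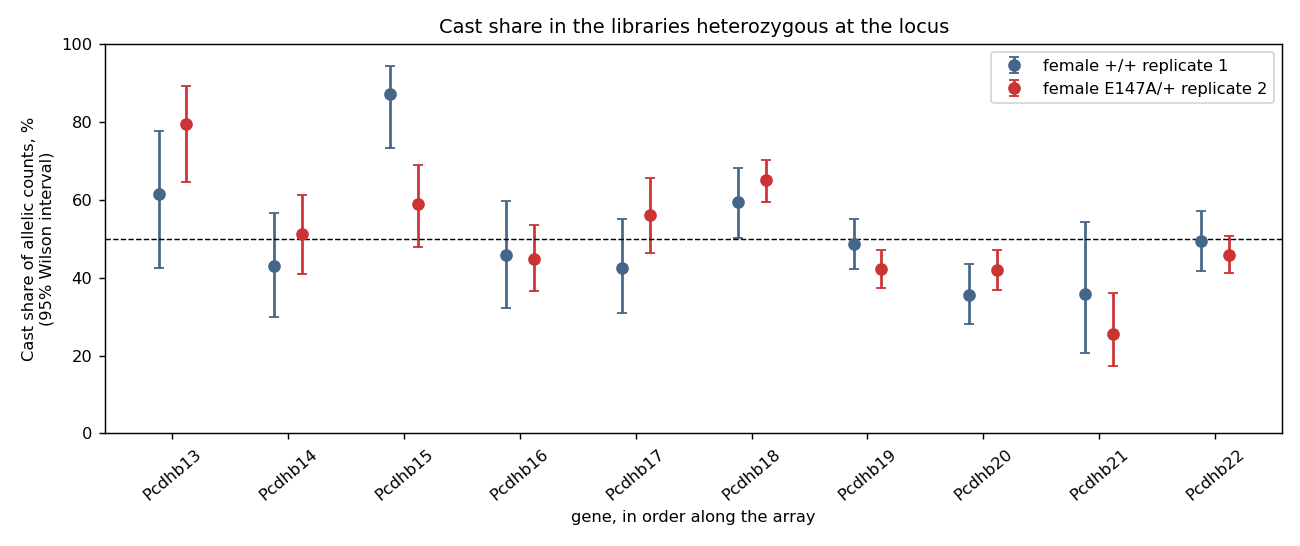
Cast share of the allelic counts of each distal beta protocadherin (vertical axis, %), with 95% Wilson intervals, in the 2 female libraries heterozygous at the locus, with a dashed line at 50%. Pcdhb18 lies above the line and Pcdhb20 below it in both libraries, and Pcdhb15 differs most between the libraries, at 87.2% and 58.8%.

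Single genes were less even than their sum, as were the flanking genes around the locus. From their lower to their upper decile, flanking genes had Cast shares of 37.8% to 56.8% in E147A/+ and 35.9% to 55.0% in +/+. Pcdhb19 lay within these limits in both libraries and Pcdhb20 in E147A/+ only, while Pcdhb18 lay above them in both. Pcdhb18 had more Cast than 129 counts in both libraries, with a Cast share of 65.1% (59.4 to 70.3) in E147A/+ and 59.5% (50.2 to 68.1) in +/+. Pcdhb20 had fewer, with 41.9% (36.8 to 47.1) and 35.5% (28.0 to 43.6). Pcdhb15 differed most between the libraries, with 58.8% (47.8 to 68.9, 47 of 80 counts) in E147A/+ and 87.2% (73.3 to 94.4, 34 of 39 counts) in +/+. How often other genes differed as much was not computed. Pcdhb13 (79.5%, 64.5 to 89.2) lay above 50% in E147A/+ only, and Pcdhb19 (42.1%, 37.3 to 47.1) and Pcdhb21 (25.6%, 17.4 to 36.0) below it, while their intervals in +/+ included 50%. The remaining genes, Pcdhb14, Pcdhb16, Pcdhb17 and Pcdhb22, had intervals that included 50% in both libraries, with shares from 42.6% to 56.2%.

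Per allele, both copies gave more counts in the E147A/+ library. Scaled to the libraries' normalised size, the 129 counts of the 10 genes were 1.59 times as many in female E147A/+ replicate 2 as in female +/+ replicate 1 (95% exact interval 1.43 to 1.78, 1006 against 458 counts). The Cast counts were 1.56 times as many (1.39 to 1.75, 940 against 437). This compares a single library of each genotype, and the interval says nothing of the spread between cultures. By gene, the 129 ratio ran from 0.581 to 4.79 (median 1.61) and the Cast ratio from 1.00 to 2.09 (median 1.54). The spread of such ratios over all genes was not computed. Intervals lay above 1 on both alleles for Pcdhb18 (129 1.63, 1.14 to 2.37, and Cast 2.07, 1.55 to 2.78) and Pcdhb22 (129 1.98, 1.53 to 2.59, and Cast 1.72, 1.32 to 2.27). They did so too for Pcdhb16 (129 2.03, 1.27 to 3.35, and Cast 1.97, 1.18 to 3.42) and Pcdhb20 (129 1.60, 1.24 to 2.07, and Cast 2.09, 1.51 to 2.95). In Pcdhb15 the 129 allele had 33 counts against 5 (ratio 4.79, 1.86 to 15.7) and the Cast allele 47 against 34 (1.00, 0.632 to 1.61).

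The libraries with no Cast at the locus gave a second pair. There the 129 counts of the 10 genes were 3.20 times as many in female E147A/+ replicate 1 as in female +/+ replicate 2 (2.95 to 3.48, 2601 against 731 counts). By gene these ratios ran from 1.90 (Pcdhb15) to 4.66 (Pcdhb22), and the spread of such ratios over all genes was not computed. This pair too is a single library of each genotype, so its interval covers counting error only and the difference between the pairs was not tested.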

How the data were processed

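RNA of 10 mouse neural stem cell cultures was measured. The authors deposited raw counts per gene, and for the 4 female libraries also split them by allele (129, Cast). The submitters' processing notes name Trim Galore 0.4.4, HISAT2 2.0.5, featureCounts, edgeR 3.24.0, R 3.5.1 and the build GRCm38 (mm10). Per the labels' protocols libraries were stranded, but how counting used strand and how reads were assigned to alleles are not given in the sources used here. No per-sample column was left unused (0 columns). Groups follow the labelled sex and genotype.

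Genes were kept by filterByExpr (17110 of 52632), scaled by TMM and tested with the quasi-likelihood F test of edgeR 4.0.16 (R 4.3.3) on 1 mean per group over all 10 libraries (6 residual degrees of freedom). Benjamini-Hochberg adjustment ran over all tested genes, with a threshold of 0.05, and intervals are 95%. CPM divide counts by library size times TMM factor, so depth (20648916 to 44519020 counts) limits the precision of the lowest genes. Lengths and shared 80-base stretches come from GENCODE M21 transcripts. Within-litter ratios used a pseudocount of 0.1 CPM, and profiles a prior count of 2. Neighbouring genes exclude gene models that span the protocadherin arrays. The edgeR, limma-voom and DESeq2 fits were tested on simulated counts.

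All 10 members are named. Other genes named are the 5 with the most alike profile, Smchd1, and genes of the lists past the threshold (at most 5 a list). Beside these, some list genes that did not pass are named as examples of their list (Ctcf, Rad21, Ptk2, Cyfip2, Sox2, Nes, Vim). Map2 and genes that DESeq2 alone called (Gm36858, Taf7, Pdgfra) are named after their values were seen. The lists were proximal beta genes, locus neighbours, regulators, signalling partners and cell type markers. Members, lists and tests were chosen with earlier results of these data known. Embryos are separate per the labels' protocols, but embryos of a litter share parents.

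Other settings tried were DESeq2 1.42.0, limma-voom (limma 3.58.1), RLE normalisation, no filter, 10 counts in every library, litter as a covariate, a replicate block, leaving out each library, and, for alleles, another flanking window, count minimum and summary. Leaving out the overlapping Pcdhb21 and Pcdhb22 and a crossed female pairing were added after the data were seen.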

Additional observations from a re-analysis of the deposited data

How the results depend on the processing

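Leaving out each of the 10 libraries in turn left 0 of 10 distal genes called in edgeR over both sexes, in females, in males, for the interaction and between +/+ females and males. The median log2 fold change over both sexes (1.10) ran from 0.959 to 1.36, and the distal minus proximal median (-0.355) from -0.639 to -0.11. DESeq2 called 4 of 10 over both sexes (113 of 17110 genes in all) and 2 in males (48 in all). In DESeq2 the log2 fold changes and adjusted p-values were 1.25 and 0.0423 for Pcdhb14, 1.21 and 0.00325 for Pcdhb16, 1.42 and 8.79e-07 for Pcdhb18, and 1.48 and 0.00305 for Pcdhb22. Over all alternatives the adjusted p of Pcdhb14, Pcdhb16 and Pcdhb22 ranged up to 1, and that of Pcdhb18 up to 0.852. With no filter, edgeR called 1 gene, Pcdhb18 (log2 fold change 1.42, adjusted p 0.0311), among 33 of 28370 genes. The distal minus proximal median was -0.707 with 10 counts in every library, which kept 9 distal and 10 proximal genes, -0.606 with no filter, which added Pcdhb1, and -0.79 with litter as a covariate. The cause of the differences between tools was not tested. Of 313 values under alternatives, 303 stayed on their side of the threshold or, without a test, within their error, 5 counts or medians moved beyond it and 5 single-gene estimates passed the threshold. No fold change changed sign.

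Libraries with 1 replicate number come from different embryos. In males replicate 2 of both genotypes came from litter 1 and replicate 3 of both from litter 3. Male replicate 1 and the female numbers joined different litters. Deviations from the group means correlated between libraries with 1 number at -0.304 in females and at -0.238, 0.416 and 0.034 in males (replicates 1, 2 and 3). With a replicate block 0 of 10 distal genes were called (5 of all genes instead of 14), with a median of 1.14. With the female numbers crossed 0 of 10 were called, and 6 of all genes. Pcdhb13 limits what depth can show: it had 4 to 36 counts in +/+ libraries. Without Pcdhb21 and Pcdhb22 the Cast share of the sum was 50.3% in female E147A/+ replicate 2 and 49.2% in female +/+ replicate 1.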
